A study of Rattus norvegicus with 352 samples.

Results

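The ceramide synthases and the growth factor gene Gdf1 were followed in RNA from whole brain hemispheres of heterogeneous stock rats, an outbred laboratory population. The 6 genes, Cers1, Gdf1, Cers2, Cers4, Cers5 and Cers6, were taken by symbol from the 38354 genes of the deposited table, and all 6 were found. They were chosen by name with measured values of these same libraries in view, so their levels are given as a description. The rats were naive and untreated, and polyA RNA was read from frozen tissue. The labels name 1 group, and the libraries analysed here are 97.2% of its samples, with 10 samples not analysed. There was no second condition, so the questions were how far each gene differed between libraries, which other genes moved with it, and what its neighbours on the chromosome did. The labels do not say whether each hemisphere came from a separate rat, and give no age, sex or family, so a p-value here measures only the spread between these samples.

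Ceramide is the core of every sphingolipid. A ceramide synthase joins a fatty acyl chain to a sphingoid base in the endoplasmic reticulum, and the members of the family differ in the chain length they prefer. Cers1 makes the stearoyl ceramides typical of neurons, Cers2 makes very-long-chain ceramides and is the member best known from myelin-forming cells, Cers4 uses long to very long chains, and Cers5 and Cers6 favour the shorter palmitoyl chain. Cers3 serves mainly skin and testis. Gdf1 encodes a secreted ligand of the TGF-beta family that acts with Nodal in left-right patterning of the embryo. In mouse brain the Cers1 and Gdf1 reading frames are known to lie on a shared messenger RNA.

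The deposited rows of Cers1 and Gdf1 were identical in every library analysed. RefSeq on GRCr8 gives both genes the same span, chr16:19131271-19146480 on the minus strand, with the same start site and 1 transcript each. Only 7 of the 16683 genes tested, or 0.042%, shared every value with another gene: Cers1 with Gdf1, Aldh3b2-ps1 with Aldh3b2l1 and Aldh3b3l-ps1, and LOC120102105 with Rn18s. The correlation of 1 between Cers1 and Gdf1 follows from this, and the table cannot tell the 2 genes apart. Every value given below for Cers1 is also the value of Gdf1, and the 6 genes give 5 distinct measurements. How the counter shared reads between the genes was not tested, so the sum of both rows is given beside the single row.

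The promoter windows run from 250 bases before the start site to 50 after it, from RefSeq on GRCr8, 5′ to 3′ on the gene's strand. They are shown for the pair that shares one, for Cers2, whose level followed myelin genes, and for Cers4, whose level followed genes of its own chromosome. Capitals mark every match to the GC box GGGCGG, the CCAAT box CCAAT, the TATA box TATAAA and the E-box CACGTG, searched on both strands, with no match overlapping another.
Cers1 and Gdf1, chr16:19146431-19146730, minus strand: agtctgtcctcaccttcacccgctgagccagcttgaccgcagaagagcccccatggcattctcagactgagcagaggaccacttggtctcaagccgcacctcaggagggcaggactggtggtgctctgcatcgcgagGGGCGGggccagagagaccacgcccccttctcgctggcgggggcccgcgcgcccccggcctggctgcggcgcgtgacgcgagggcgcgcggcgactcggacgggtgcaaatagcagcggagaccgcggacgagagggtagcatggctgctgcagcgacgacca
Cers2, chr2:185579261-185579560, plus strand: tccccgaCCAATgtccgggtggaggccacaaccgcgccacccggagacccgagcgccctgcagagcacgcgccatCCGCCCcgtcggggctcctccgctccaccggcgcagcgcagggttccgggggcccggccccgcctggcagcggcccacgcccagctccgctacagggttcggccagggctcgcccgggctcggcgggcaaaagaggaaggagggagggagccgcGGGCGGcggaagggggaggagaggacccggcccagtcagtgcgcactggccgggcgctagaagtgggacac
Cers4, chr12:7649360-7649659, plus strand: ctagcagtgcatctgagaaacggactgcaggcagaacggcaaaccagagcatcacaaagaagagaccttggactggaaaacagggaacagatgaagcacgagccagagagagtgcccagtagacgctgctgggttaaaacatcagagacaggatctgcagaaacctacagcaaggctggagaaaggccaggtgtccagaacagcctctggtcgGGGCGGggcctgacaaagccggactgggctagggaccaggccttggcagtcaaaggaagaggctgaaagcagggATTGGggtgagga
The shared Cers1 and Gdf1 window held 30 CG pairs and 1 GC box. The Cers2 window held 35 CG pairs, 2 GC boxes and 1 CCAAT box, and the Cers6 window held 30 CG pairs, 1 CCAAT box and 1 E-box. The Cers4 window was poorer in CG, with 7 pairs, equal to the median of 7 over the 33465 promoters of the table, and had 1 GC box and 1 CCAAT box. The Cers5 window held 16 CG pairs and 2 GC boxes. Of all promoters, 33.1% held a GC box, 37.5% a CCAAT box, 14.2% a TATA box and 6.42% the E-box. A match is a run of letters and not a site shown to be bound, and the start sites of the Cers5 and Cers6 windows differ from those in the deposited table.

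All 5 measurements were well detected in every library and differed little between libraries. Levels are log2 of counts per 1000000 (CPM) plus 1; they are not corrected for transcript length, so they are not compared between genes. Cers1, and equally Gdf1, had 45.1 CPM in the lowest library, a median of 52.5 CPM and 64.4 CPM in the highest, a level of 5.74 ± 0.09 (SD over all libraries). With the rows of Cers1 and Gdf1 summed, the lowest, median and highest values were 90.2, 105.1 and 128.7 CPM. A single row rested on 1156.5 estimated counts in the median library and at most 2137, which limits the precision of a level in the smallest libraries.

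Cers2, the very-long-chain synthase, had 38.8, 50.9 and 62.9 CPM in the lowest, median and highest library, a level of 5.69 ± 0.09 (SD over all libraries). Cers4 had 58.9, 74.2 and 92.4 CPM, a level of 6.23 ± 0.11 (SD over all libraries). Cers5 had 39.4, 46.4 and 52.9 CPM, a level of 5.56 ± 0.07 (SD over all libraries). Cers6, the other synthase that favours palmitoyl chains, had 56.3, 72.4 and 96.04 CPM, a level of 6.20 ± 0.10 (SD over all libraries). The library highest of all for Cers1 was the lowest of all for Cers6.

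Between the 5th and 95th percentile of libraries, the fold was 1.21 for Cers1, 1.24 for Cers2, 1.28 for Cers4, 1.16 for Cers5 and 1.27 for Cers6. The SD was then set against the SD that a trend over all genes gives at the same level. Cers4 stood at 1.27 times that trend and Cers6 at 1.21 times, at percentiles 78.4 and 74.3 of the genes tested. Cers2 was at 1.005 times and Cers1 at 0.93 times. Cers5 was the steadiest member, at 0.69 times the trend, with only 2.18% of the genes tested below it. None of the 5 reached 2 times the trend, which 5.22% of all genes tested did, and none fell into separate levels by a mixture fit, which 0.821% did. Cers3, which is not among the 6 genes, was low, with 0, 1.52 and 4.97 CPM in the lowest, median and highest library. Its mean level of 1.30 was just past the minimum for testing. Its SD was 2.75 times the trend, at percentile 97.8 of the genes tested.

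**Figure D1:**
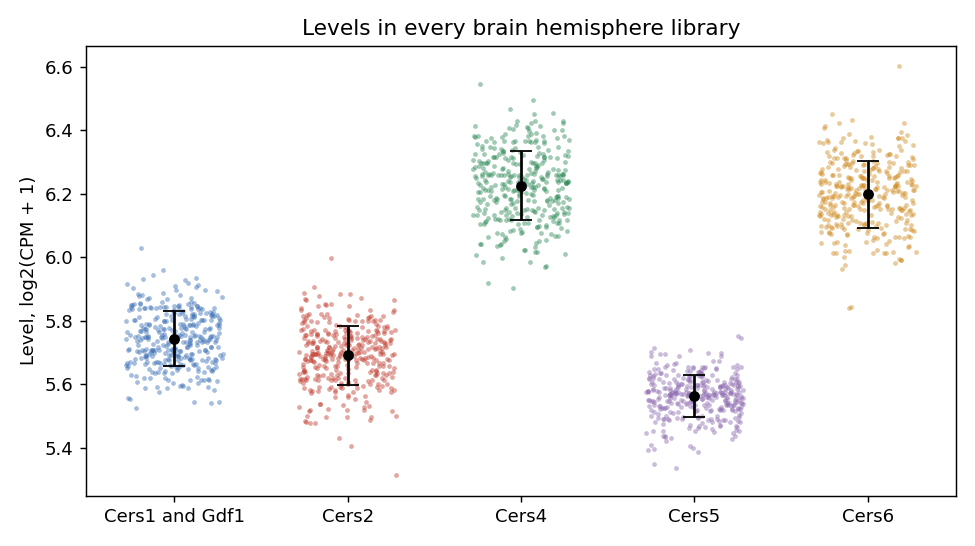
Level, as log2 of CPM plus 1, of the 5 distinct measurements in every library; each coloured point is 1 library, and the black point and bar are the mean and SD. The levels of each gene form 1 cloud, narrowest for Cers5, with a few low and high libraries at the ends for Cers2 and Cers6.

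Libraries summed to between 5418230 and 42980793 estimated counts, with a median of 21881769. The correlation of a gene's level with the log2 of this total was between -0.05 and 0.09 over the 5 measurements. Blocks of libraries whose identifiers start alike stand in for a possible batch, which the labels do not give. Cers6 differed between the 7 blocks by limma's F-test, with block means from 6.18 to 6.25 and an adjusted p of 0.0293. The other 4 measurements did not pass, with adjusted p from 0.272 for Cers1 to 0.718 for Cers4. Of all genes tested, 8.21% passed this test. A set of 11 libraries stood apart by a lower median correlation with the rest, down to 0.982 against a median of 0.991. Brain tissue markers were present: all but 1 of the marker genes of 14 cell types reached the level minimum of 1, and the median level of the 12 oligodendrocyte genes was 8.15.

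The members did not move as a family. Of 10 pairs, 7 passed a permutation test of Pearson's r after adjustment over the 10, and 5 of these 7 were negative. The largest was Cers1 with Cers6: r was -0.44 (95% interval -0.52 to -0.35) and Spearman's rho -0.41. The permutation p was 1e-05, the smallest 100000 permutations can give, and the adjusted p was 5e-05, for both. Leaving out the 2 libraries with the most extreme Cers1 levels gave an r of -0.42. The r of Cers1 with Cers6 was negative in each of the 7 identifier blocks, from -0.51 to -0.11.

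Cers6 also ran against Cers2, with r of -0.28 (95% interval -0.37 to -0.18), rho of -0.31 and permutation adjusted p of 5e-05 for both, and within blocks from -0.92 to 0.24. It ran against Cers5, with r of -0.18, rho of -0.17 and permutation adjusted p of 0.00185 and 0.00476. Cers1 was negative with Cers4, at r of -0.19 and rho of -0.16 with permutation adjusted p of 0.00177 and 0.00476, but under median ratio scaling it did not pass (r of -0.083, adjusted p of 0.137). Cers5 was positive with Cers2 at r of 0.17 and with Cers1 at r of 0.16, both with a permutation adjusted p of 0.00415. Cers4 with Cers5 passed by r, at -0.13 with a permutation adjusted p of 0.0215, but not by rho, at -0.11 with an adjusted p of 0.0683, and it did not pass without the 11 libraries that stood apart. Cers1 with Cers2, at r of 0.11, did not pass, with a permutation adjusted p of 0.0617. It passed under median ratio scaling (r of 0.21, permutation adjusted p of 0.0002) and without the 5% of libraries with fewest genes (r of 0.14, permutation adjusted p of 0.0152). Cers2 with Cers4 (r of 0.05, 95% interval -0.06 to 0.15) and Cers4 with Cers6 (r of 0.00, 95% interval -0.10 to 0.11) did not pass either.

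These pair correlations moved with variation that many other genes share. The first principal component over all genes tested had r of -0.37 with Cers1, -0.27 with Cers2 and 0.35 with Cers6, and the second had r of 0.46 with Cers1, -0.35 with Cers4, 0.34 with Cers5 and -0.31 with Cers6. With 10 components removed, Cers1 with Cers6 was at r of -0.05. Cers2 with Cers6 was then positive at r of 0.17, with a permutation adjusted p of 0.0149, and was the only pair that passed. What the components stand for was not tested.

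Cers2 followed the myelin genes. Its level had r of 0.64 (95% interval 0.57 to 0.70) and rho of 0.58 with the oligodendrocyte score, the mean z value of 12 genes of myelin-forming cells. The permutation p was 1e-05, the smallest these permutations can give, and the adjusted p over 70 tests was 8.75e-05. The r was 0.61 when the 2 libraries with the most extreme Cers2 levels were left out, lay between 0.55 and 0.90 in the 7 identifier blocks, and was 0.51 with 10 components removed. In bulk tissue, fewer cells of a type and less RNA per cell cannot be told apart.

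Single oligodendrocyte genes showed the same pattern. Of the 12, 6 had r of 0.5 or more with Cers2, 10 had 0.3 or more and none was below 0, with a median of 0.48. Cnp, an enzyme of the myelin sheath, was at 0.68. The myelin protein gene Mbp was at 0.51, and the surface glycoprotein genes Mog and Mag were at 0.55 and 0.53. Aspa, which makes acetate from N-acetylaspartate in these cells, was lowest at 0.04. The median r was 0.36 with 10 components removed, and 10 of the 12 were at 0.3 or more. Cers6 went the other way with this score, at r of -0.34 (95% interval -0.43 to -0.25) and a permutation adjusted p of 8.75e-05. It was -0.05 with components removed, and within blocks it ran from -0.65 to 0.34. The difference between the correlations of the 5 measurements was not tested.

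**Figure D2:**
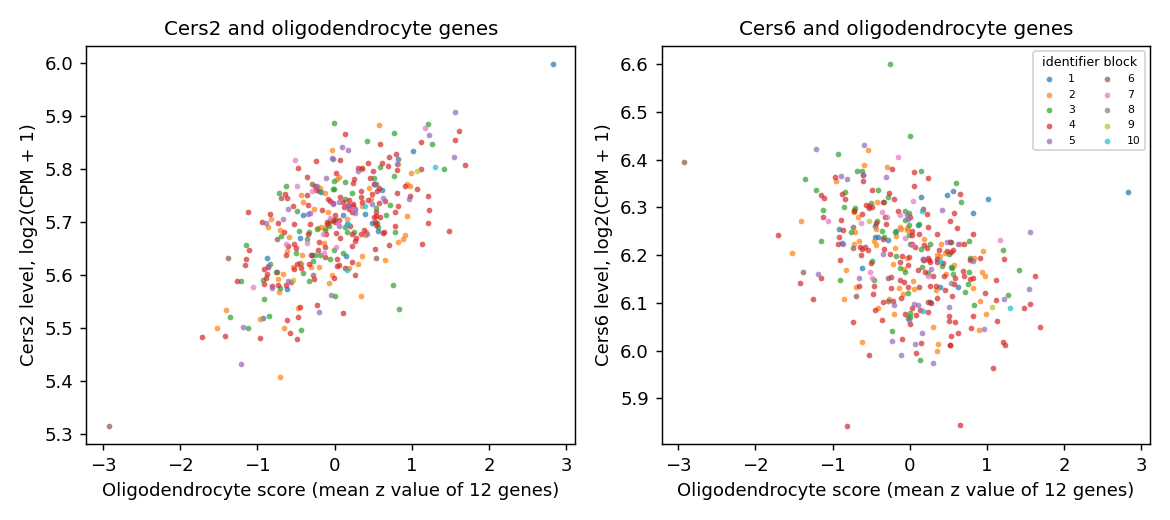
Level of Cers2 (left) and Cers6 (right), as log2 of CPM plus 1, against the oligodendrocyte score in all libraries; each point is 1 library, coloured by identifier block. Cers2 rises with the score across blocks at r of 0.64, and Cers6 runs the other way at r of -0.34.

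Over 14 cell type scores and 5 measurements, 27 of 70 correlations passed, 15 positive and 12 negative. Cers2 passed with 11 lists. It was positive with oligodendrocyte precursors (r of 0.35), microglia (0.30), choroid plexus (0.28), endothelial cells and pericytes (0.27), meningeal fibroblasts (0.27), ependymal cells (0.24) and astrocytes (0.18). It was negative with the 3 neuronal lists of excitatory (-0.20), inhibitory (-0.18) and striatal neurons (-0.17). Cers6 passed with 8 lists, all negative and all glial, vascular or lining cells, with the largest after oligodendrocytes being astrocytes (-0.24) and microglia (-0.23). Cers1 passed with 4 lists, all positive: microglia (0.23), inhibitory neurons (0.16), excitatory neurons (0.14) and oligodendrocyte precursors (0.13). By rho, excitatory neurons did not pass, with a permutation adjusted p of 0.0787. Cers4 passed with oligodendrocyte precursors (0.24), thalamic neurons (0.16) and endothelial cells and pericytes (0.14), the last not by rho, with a permutation adjusted p of 0.0521. Cers5 passed with astrocytes alone (-0.15). Apart from oligodendrocytes with Cers2, no score reached 0.4 in size. Only 4 of the 70 passed with 10 components removed.

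Some of these calls moved with the scaling and with a few libraries. Under median ratio scaling 5 were lost and 15 gained. The lost ones were Cers2 with inhibitory neurons (r of 0.003), Cers5 with astrocytes (0.04), and Cers6 with oligodendrocyte precursors (-0.11), choroid plexus (-0.096) and meningeal fibroblasts (-0.068). Those gained included Cers1 with astrocytes (0.26) and with oligodendrocytes (0.26). Without the 11 libraries that stood apart, Cers1 with oligodendrocyte precursors was lost (r of 0.12, permutation adjusted p of 0.065). Cers4 then passed with astrocytes (0.14), striatal neurons (-0.15) and excitatory neurons (-0.14).

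**Figure D3:**
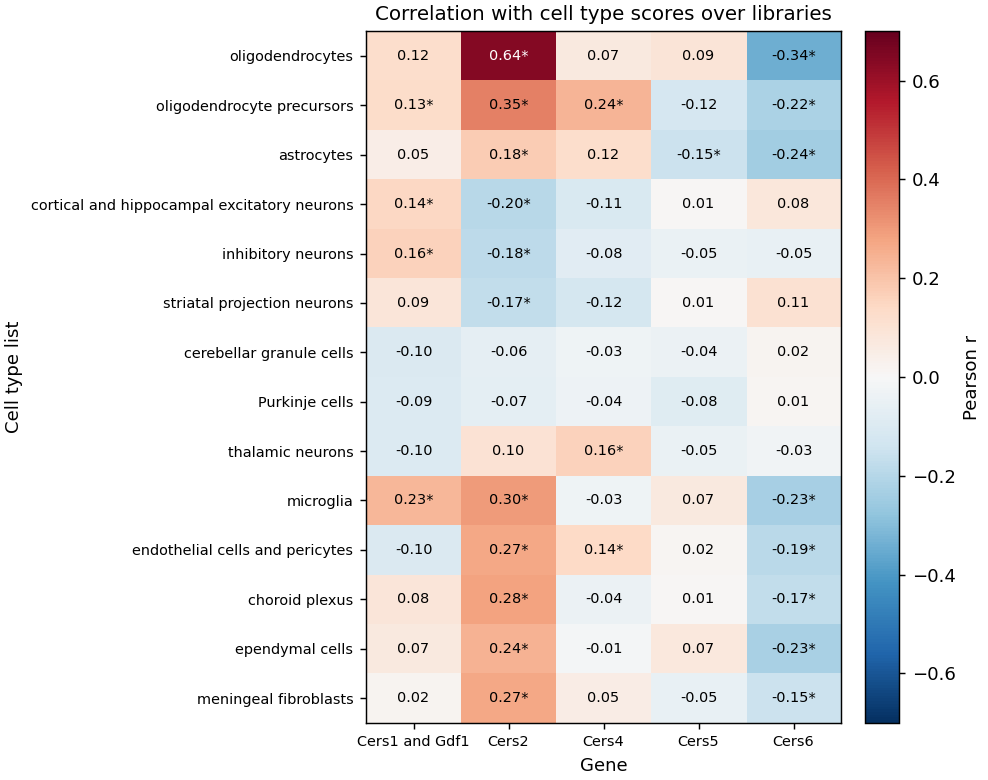
Pearson r of the 5 distinct measurements (columns) with 14 cell type scores (rows) over all libraries; an asterisk marks a permutation adjusted p under 0.05. The column of Cers2 is mostly positive outside neurons with 0.64 for oligodendrocytes, and every asterisk in the column of Cers6 stands on a negative value.

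Genes that moved with each member were sought in the whole table with limma. A gene was called where the adjusted p was under 0.05 and r was at least 0.5 in size, with 0.3 as a second limit chosen after the values were seen. Cers1 had the widest company: 1.29% of the genes tested were called positive and 1.66% negative, and at the lower limit 8.21% were positive and 12% negative. With libraries scaled by median ratios in place of totals, 3.29% were called positive and 1.32% negative. Its nearest companions were Slc22a17 (r of 0.79), a lipocalin receptor gene, Pcsk1n (0.77), which encodes a prohormone convertase inhibitor of neuroendocrine cells, Lrrc4b (0.76), a synaptic adhesion gene, Rnf208 (0.73), and Atp9a (0.73), a lipid flippase gene. The most negative were the chromatin remodeller Atrx (-0.72), the transcription factor subunit Taf1 (-0.69) and the oxidation resistance gene Oxr1 (-0.69). After removal of 10 components, the r of these 8 genes lay between -0.02 and 0.17.

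Cers2 had 26 genes (0.156%) called positive and 1 (0.00599%) negative, and at the lower limit 2.43% and 1.01%. Under median ratios 60 were called positive and 3 negative, and with 10 components removed 1 and 0. The 5 highest were Cnp (0.68), Pllp (0.62), which encodes the myelin protein plasmolipin, Nkd1 (0.59), an inhibitor of Wnt signalling, Tf (0.59), transferrin, which oligodendrocytes express, and Gltp (0.58), a glycolipid transfer protein. The most negative were the splicing factor Rbfox2 (-0.53), Socs7 (-0.46) and Wipf3 (-0.44). With 10 components removed, Cnp was at 0.52, Pllp at 0.42, and Nkd1, Tf and Gltp lay between 0.31 and 0.33. Rbfox2 was then at -0.16, Socs7 at -0.06 and Wipf3 at -0.17.

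Cers6 had 67 genes (0.402%) called positive and 48 (0.288%) negative, and at the lower limit 7% and 5.87%. Under median ratios these were 37 and 16. The highest were the histone demethylase Kdm7a (0.64), the polyA polymerase Papola (0.63), the cohesin regulator Pds5a (0.62), the nuclear export receptor Xpo1 (0.62) and the kinase Rock2 (0.61). The most negative were Wscd1 (-0.65), the RNA-binding protein Pcbp4 (-0.62) and the centromere protein Cenpb (-0.59). The same 8 lay between -0.11 and 0.16 with 10 components removed.

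Cers4 and Cers5 had no gene at r of 0.5 or more in size, which is 0% in each direction. For Cers4, the limma adjusted p alone passed for 1785 positive and 2090 negative genes, and an unadjusted p under 0.05 for 2733 and 2991. At the lower limit of r, 0.522% were positive and 0.138% negative. The highest were Bmpr2 (0.39), a receptor for bone morphogenetic proteins, Secisbp2l (0.38), the decapping enzyme Dcp2 (0.38), Elapor2 (0.37) and the microtubule protein Map2 (0.37). The most negative were Snapc2 (-0.38), Rack1 (-0.35) and Actr1b (-0.35). With 10 components removed, the highest genes lay between 0.06 for Map2 and 0.19 for Secisbp2l. Snapc2 was then at -0.39, Rack1 at -0.20 and Actr1b at -0.10. For Cers5, the adjusted p alone passed for 2767 positive and 1355 negative genes, and an unadjusted p under 0.05 for 3986 and 1938, with 0.492% and 0.48% at the lower limit. The highest were the proteasome subunit Psma7 (0.39), Coro1b (0.38), Tcf25 (0.38), the cell cycle kinase Cdk4 (0.38) and Ldb1 (0.36). The most negative with Cers5 were Stox2 (-0.41), the matrix glycoprotein Tnr (-0.39) and Marf1 (-0.39). With 10 components removed, these genes lay between -0.10 for Marf1 and 0.14 for Ldb1.

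Other genes of sphingolipid metabolism were read from 7 lists, with 69 of 73 symbols tested. Acbp was not in the deposited table, and the rest of those not tested were under the minimum level. With Cers2, 10 of the 69 (14.5%) were positive at r of 0.3 or more and none was negative, beside 2.43% and 1.01% of all genes. Their median r was 0.06, beside -0.01 over all genes. One of them passed 0.5: Fa2h, the enzyme that hydroxylates the acyl chains of myelin lipids, at 0.56 with a limma adjusted p of 5.06e-27. Fa2h had r of 0.37 with 10 components removed. The level of Fa2h was 6.003 ± 0.15 (SD over all libraries).

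The remaining 9 genes that followed Cers2 stand along the route to myelin glycolipids and beyond it. Elovl1, the elongase that makes very long acyl chains, was at r of 0.36, Elovl7 at 0.36 and Elovl5 at 0.35. Degs1, which desaturates dihydroceramide, was at 0.37. Ugt8, which makes galactosylceramide, was at 0.44, and Gal3st1, which sulfates it to sulfatide, at 0.38; Ugt8 is also among the 12 genes of the oligodendrocyte score. Gm2a, an activator of ganglioside breakdown, was at 0.45, the ceramidase Acer3 at 0.37, and the sphingosine 1-phosphate receptor S1pr5, found on oligodendrocytes, at 0.30. Once 10 components were removed, Elovl1 was at 0.34, Ugt8 at 0.29 and Elovl5 at 0.24. Gal3st1 was at 0.15, S1pr5 at 0.14, Gm2a at 0.12 and Elovl7 at 0.103, and Acer3 and Degs1 were under 0.10.

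With Cers1, 8 of the 69 (11.6%) were positive at 0.3 or more and 6 (8.7%) negative, beside 8.21% and 12% of all genes. Psap, the precursor of the saposins that help lysosomal enzymes, passed 0.5 at r of 0.54. B4galnt1, which makes complex gangliosides, was at 0.42, Tecr, a reductase of acyl chain elongation, at 0.38, acid sphingomyelinase Smpd1 at 0.36 and Ormdl3, a brake on serine palmitoyltransferase, at 0.36. Fa2h, Gal3st1 and St3gal2 lay between 0.31 and 0.33. On the negative side were Cert1, which carries ceramide to the Golgi, at -0.48, the glucosylceramide synthase Ugcg at -0.42, the sphingomyelin synthase family members Sgms1 and Samd8 both at -0.40, with the ceramidase Asah1 at -0.45 and the sialyltransferase St8sia3 at -0.35. In the list of ceramide transport and sphingomyelin synthesis, 3 of 5 genes were negative at 0.3 or more with a median r of -0.40, beside a median of -0.05 over all genes. With 10 components removed, Smpd1 was at 0.16 and B4galnt1 at 0.15, and Psap and Cert1 were within 0.06 of 0. Other genes that act on ceramide were near 0: Cerk at 0.03, Sgms2 at 0.004 and Ugt8 at -0.03, and under median ratios Cerk was at 0.19, Sgms2 at 0.05 and Ugt8 at 0.11. Under median ratios, Cert1 was at -0.30 with Cers1, Asah1 at -0.298, Ugcg and Sgms1 both at -0.23, St8sia3 at -0.22 and Samd8 at -0.17, so that Cert1 alone of the 6 remained at 0.3 or more in size.

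With Cers6, 2 of the 69 (2.9%) were positive at 0.3 or more and 5 (7.25%) negative, beside 7% and 5.87% of all genes. The positive genes were Cert1 (0.41) and Samd8 (0.35). The negative genes were Psap (-0.44), Fa2h (-0.42), Gal3st1 (-0.39), S1pr5 (-0.36) and Gm2a (-0.34). Each of the 7 also stood at 0.3 or more in size with Cers1 or Cers2, in the opposite direction. With 10 components removed, the r of the 7 with Cers6 lay between -0.09 for S1pr5 and 0.16 for Samd8. Under median ratios, Psap was at -0.27 and Gm2a at -0.296 with Cers6, and the others stayed at 0.3 or more in size. Cers4 and Cers5 had 1 gene each at the lower limit, St8sia3, at 0.30 with Cers4 and -0.30 with Cers5.

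Upstream of all synthases, no gene of serine palmitoyltransferase and its regulators reached 0.5 with any member. Their r ran from -0.14 for Ormdl1 to 0.28 for the catalytic subunit Sptlc2 with Cers2. With Cers1 it ran from -0.29 for Ormdl1 to 0.36 for Ormdl3.

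Gdf1 is a ligand, so the genes of nodal signalling were read beside it. Nodal itself had a mean level of 0.03, its relative Gdf3 0.02, the co-receptor genes Cripto and Cfc1 0.03 and 0.12, the antagonists Lefty1 and Lefty2 0.21 and 0.05, and the nuclear partner Foxh1 0.07, all under the minimum level of 1. Of 18 listed symbols, 9 were tested: receptors, Smads and convertases. Tdgf1 and Cfc1b were not in the deposited table. None reached 0.5 with the row shared by Cers1 and Gdf1. The type II receptor Acvr2a was at r of -0.44 and the proprotein convertase Furin at 0.36, and both were within 0.02 of 0 with 10 components removed. With Cers6, Acvr2a was at 0.42, Smad3 at 0.33 and Smad4 at 0.30, and with Cers2 the convertase Pcsk6 was at 0.31. With 10 components removed, these were 0.06, 0.21, 0.09 and 0.15.

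**Figure D4:**
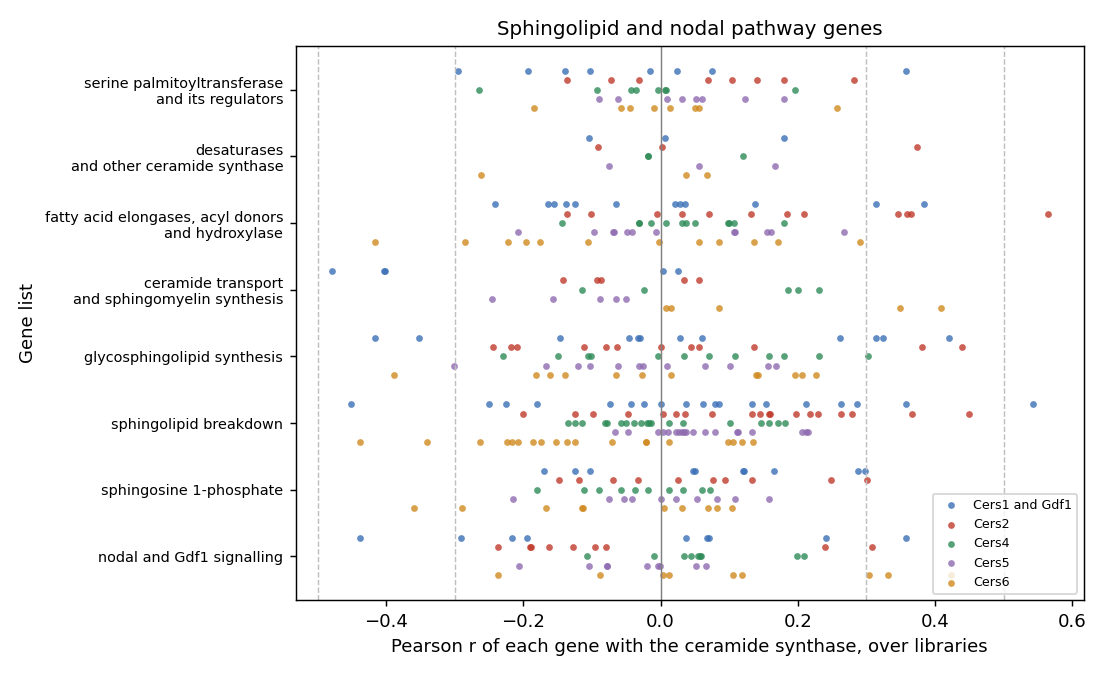
Pearson r of each tested gene of 8 pathway lists (rows) with the 5 distinct measurements (colours) over all libraries; each point is 1 gene and dashed lines mark 0.3 and 0.5 in size. Fa2h with Cers2 at 0.56 and Psap with Cers1 at 0.54 are the points past 0.5, and the points of Cers4 and Cers5 lie closest to 0.

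Cers4 differed from the other members in its neighbourhood on the chromosome once 10 principal components were removed. Cers4 lies at chr12:7649610-7688066 on the plus strand in GRCr8. With 10 principal components in the limma fit, 33 of the 16682 other genes tested (0.198%) moved with it, and 19 of the 33 (57.6%) were on chromosome 12, which holds 3.34% of the genes tested. The farthest of the 19 started 13.1 Mb away. Within 2 Mb, a distance chosen after the values were seen, 11 of 30 tested genes passed, 6 positive and 5 negative. With 5 components 11 of the 30 passed, beside 0.498% of all genes, and with 20 components 9 passed, beside 0.114%. The count was 11 without the 11 libraries that stood apart and 10 under median ratios, both with 10 components. With no component removed, 13 of the 30 (43.3%) passed by adjusted p alone, but so did 23.2% of all genes.

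Upstream of the Cers4 start, the largest r was that of Snapc2, a subunit of the complex that transcribes small nuclear RNA genes, 245.96 kb away. It was -0.38 before and -0.39 after the components were removed, with limma adjusted p of 1.68e-09 and 3.96e-10. Ctxn1, a small neuronal membrane protein gene 239.69 kb away, was at -0.06 before and 0.36 after, with limma adjusted p of 0.499 and 2.43e-08. The mitochondrial import gene Timm44 was at 0.26, the kinase gene Map2k7 at -0.26, and LOC102552452, for which the tables used here give no further name, at 0.35, all with components removed. The gene closest to Cers4 among those tested, the RNA-binding protein gene Elavl1 at 166.985 kb, was at -0.07 and did not pass.

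Downstream, no tested gene started nearer than 999.38 kb. LOC120095873, at 1038.98 kb, had the largest r of any gene in the table with Cers4 once the components were removed, -0.43 with a limma adjusted p of 1.39e-12. LOC120095871 beside it was at 0.23. Further genes that passed upstream were Pet100 (0.30), Zfp358 (-0.28), Rfc3 (-0.22) and Trappc5 (0.21), between 1114.04 and 1813.06 kb away. Positive and negative genes stood side by side, so the genes that passed did not all move in the same direction as Cers4. The data hold no genotypes, and whether these genes and Cers4 share an inherited difference was not tested.

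For the other members, a smaller share of the genes within 2 Mb passed with components in the fit. With 10 components in the limma fit, none of the tested genes within 2 Mb of Cers1 passed, beside 0.216% of all genes. For Cers5 it was 0 of 76, beside 0% of all genes. For Cers2 it was 4 of 82, Otud7b (0.24), Bcl9 (-0.21), Car14 (0.21) and Txnip (0.18), beside 2.67%. For Cers6 it was 1 of 25, Lrp2 (-0.23), beside 1.2%. Without the 11 libraries that stood apart, it was 2 of 25 (8%) for Cers6, beside 0.348% of all genes. For Cers2 it was then 2 of 82, beside 2.08%. Of the genes that passed anywhere, 0 of 36 were on the same chromosome as Cers1, 35 of 445 (7.87%) for Cers2 and 10.9% for Cers6, while those chromosomes hold 2.9%, 6.58% and 7.28% of the genes tested. The difference in these shares between members was not tested.

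Before components were removed, 70.3% of the tested genes within 2 Mb of Cers1 passed by adjusted p alone, beside 62.8% of all genes. Among the 5 nearest tested genes on each side, the largest r with Cers1 was that of Cope, a coatomer subunit gene whose start lies 12.6 kb away, at 0.56. Of these neighbours, Comp and Sugp2 were at -0.02 and 0.06. Among the 5 nearest on each side, the largest r in size was Gabpb2 for Cers2 (-0.24), Lima1 for Cers5 (0.22) and Bbs5 for Cers6 (0.30), and with components in the fit neither these nor Cope passed.

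**Figure D5:**
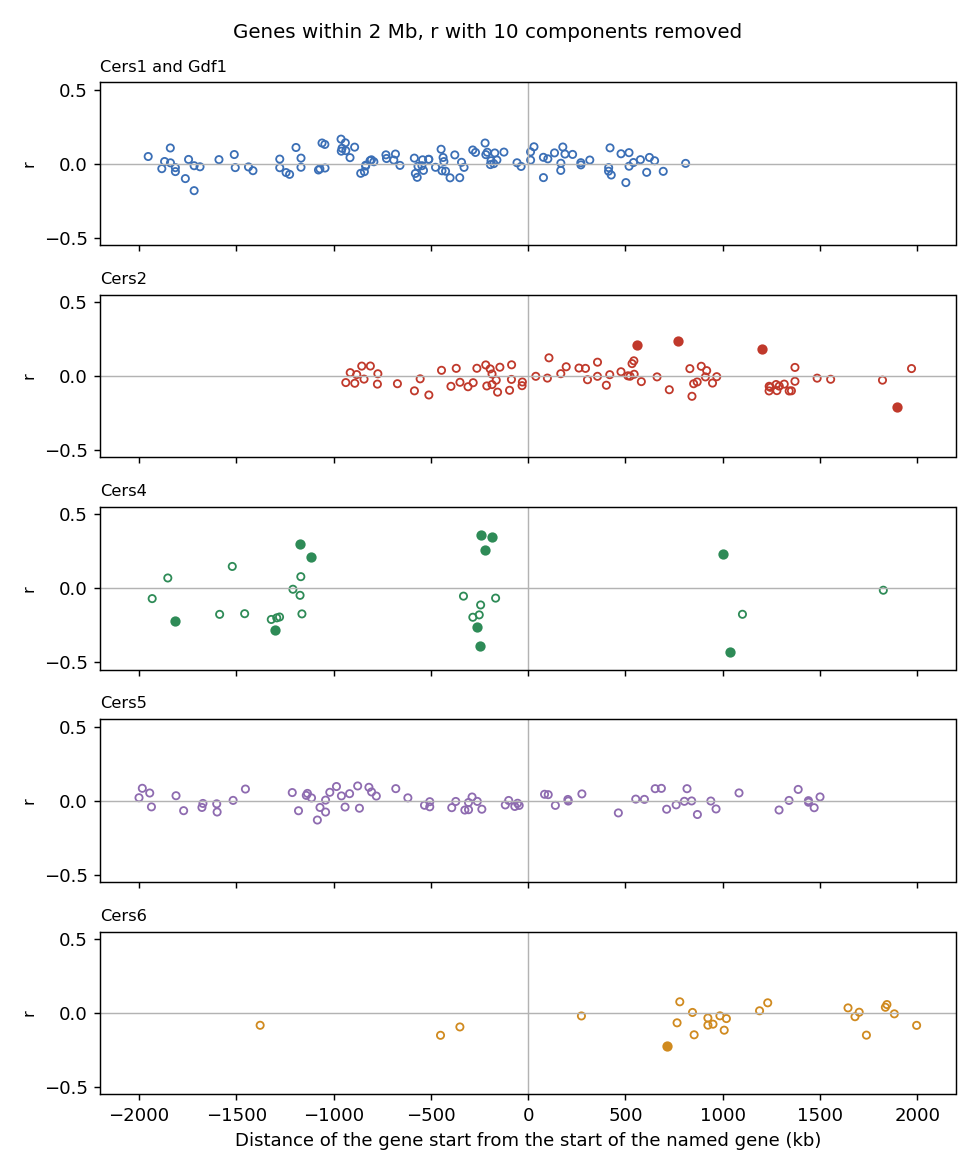
Pearson r, with 10 principal components removed, of every tested gene within 2 Mb of each member against the distance of its start site in kb, 1 panel per distinct measurement; filled points have a limma adjusted p under 0.05. The panel of Cers4 holds 11 filled points of 30, above and below 0, while those of Cers1 and Cers5 hold none.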

How the data were processed

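PolyA RNA of whole brain hemispheres was counted by kallisto according to the labels (per the submitters' processing notes). Its version, settings and annotation are not stated; the deposited table is named for the build rn8. The deposited values are log2 of an estimated count plus 1, not scaled for depth, as the sums per library show. They were turned back into estimated counts, scaled to CPM by library total, and log2 of CPM plus a pseudocount of 1 was taken as the level. Genes of mean level 1 or more were tested (16683 of 38354). Of 352 labelled samples, 342 have a library in the table and enter every mean, SD and correlation (n = 342); 10 are not analysed here. Symbols matched RefSeq GRCr8 for 38278 genes, which gave coordinates; no gene is named from elsewhere.

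The 6 members, the gene lists and the tests were chosen with earlier results of these data known. Genes were named by rule: the members, the 5 highest and 3 most negative r per member among genes not named by a locus number alone, pathway genes called or at the ends of their list, the neighbour of largest r, and Cers3; others were chosen after their values were seen. Association used limma 3.58.1 in R 4.3.3 with a mean-variance trend and Benjamini-Hochberg adjustment over all genes tested. Correlations of members used 100000 two-sided permutations of r and rho, adjusted over 10 pairs or 70 pairs of member and cell type list. More pairs were planned; the identical rows of Cers1 and Gdf1 left 10. Spread was read against a lowess trend, and separate levels came from Gaussian mixtures of at most 3 components, neighbouring means at least 4 SD apart. Identifier blocks (the first 6 characters, at least 8 libraries) held 335 libraries. Principal components were taken from z values of all genes tested. The planned comparison of proteins and transcript lengths is not analysed here. The fits were tested on simulated data first.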

Additional observations from a re-analysis of the deposited data

How the results depend on the processing

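No paired analysis was possible because all samples form a single group. Among the recomputed values of a chosen set of results, 31 changed direction, side of the threshold or size. That set holds only a few of the 70 pairs of member and cell type list. Calls lost or gained by the other pairs are not counted singly in the 31, so 31 is not the total of all changes. Nearly all of the 31 came from removing 10 principal components or from median ratio scaling, and the cause was not tested. With 10 components removed, r was -0.056 for Cers1 with Cers2, 0.015 for Cers1 with Cers4, 0.028 for Cers1 with Cers5, -0.0499 for Cers1 with Cers6, -0.018 for Cers2 with Cers5, 0.17 for Cers2 with Cers6, -0.021 for Cers4 with Cers5, -0.075 for Cers4 with Cers6 and -0.016 for Cers5 with Cers6. Of these pairs only Cers2 with Cers6 passed, with a permutation adjusted p of 0.0149. The count of genes at r of 0.5 or more was then 0 and 0 (positive and negative) with Cers1, 1 and 0 with Cers2, and 0 and 0 with Cers6. With these components, 4 of 70 cell type pairs passed, and Cers2 was at -0.14 with endothelial cells and pericytes and -0.015 with meningeal fibroblasts. Under median ratio scaling the positive count was 548 with Cers1, 60 with Cers2 and 37 with Cers6, and the negative count was 3 with Cers2 and 16 with Cers6. That scaling gave r of 0.21 for Cers1 with Cers2, which then passed, -0.083 for Cers1 with Cers4, which then did not, and -0.0032 for Cers4 with Cers6; it shifted single libraries by -0.06 to 0.06 on the log2 scale. Cers1 with Cers2 was at 0.14 and passed without the 5% of libraries with fewest genes. Cers4 with Cers5 was at -0.11 and did not pass without the libraries that stood apart, an alternative chosen after seeing the data. With 20 components in place of 10, also chosen after seeing the data, 1 gene in place of 445 moved with Cers2 and 1 gene in place of 1.2% of genes with Cers6, while 19 genes in place of 33 moved with Cers4, and 83 did with 5 components. The lowest estimated count of a member in any library was 403 for Cers4 and lower for the other genes, which limits the precision of levels in the shallowest libraries.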
